A study of Mus musculus with 4 samples.

Results

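Distal intergenic CpG sites were taken as the CpG sites of the autosomes that lay more than 10 kb from every gene of the GENCODE vM1 annotation of mm9, had at least 10 reads in all 4 RRBS-seq libraries, and were more than 5 kb from every probe of the study's capture-seq screen for retrotransposons. Of the 400195 CpG sites with that coverage, 45763 (11.4%) met these criteria, and 404 more were left out because a capture probe was near. They lay in 13372 loci, a locus being a run of sites with no gap over 500 bp. Where at least 5 sites were joined in this way they were also read as a region, which gave 2833 distal regions of 22157 regions in all (12.8%). The membership used distance and coverage only, and no methylation value. The median distance to the nearest gene was 39.2 kb and the largest was 1116 kb.

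The study grew mouse embryonic stem (ES) cells that carry a deletion of Chr4-cl, a cluster of KRAB zinc finger protein (KRAB-ZFP) genes on chromosome 4, beside wild-type cells. RRBS-seq, in which MspI-cut DNA is treated with bisulfite and sequenced, was done on 4 samples with 1 library each: Chr4-cl WT and Chr4-cl KO cells, each in serum or in 2i + Vitamin C. Serum medium held 20% FCS and LIF, and the cells in 2i + Vitamin C were in that medium for 1 week. The KO line came from a mouse strain with a tamoxifen-inducible Cre at the Rosa26 locus, KO and WT clones were picked individually after CRISPR/Cas9 treatment, and no treatment beyond the medium is given in the labels. With 1 library per group, a difference between KO and WT cannot be told apart from a difference between clones or libraries, and intervals cover counting error only.

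CpG methylation of the mammalian genome outside genes is usually high, and stretches dense in CpG, such as CpG islands, are the usual exceptions. In ES cells the 2i inhibitors of MEK and GSK3 lower de novo methylation and its maintenance, and vitamin C raises the activity of the TET enzymes, which oxidise methylated cytosine. Much of the intergenic genome consists of transposable element copies, and KRAB-ZFPs bind many of these and recruit KAP1, which brings in repressive histone methylation and protects DNA methylation at its targets.

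The sequences of 9 regions are given as examples of the DNA behind the regions described here. They are from mm9 and lie more than 10 kb from every annotated gene, so none is exonic, intronic or in a UTR. Capitals mark the CpG dinucleotides that were measured, and a region over 300 bp is shown as its 300 bases with most measured CpG sites. Each is labelled with its nearest protein-coding gene, which lay 11.2 to 719 kb away. The first 4 had higher methylation in KO than in WT cells in 2i + Vitamin C and are shown because they are copies of one another. The next 2 were lower in KO cells in that medium, 1 was higher in KO cells in serum, 1 kept its methylation in 2i + Vitamin C in WT cells, and the last lost it.
near N6amt1, chr16:87302777-87302899, plus strand: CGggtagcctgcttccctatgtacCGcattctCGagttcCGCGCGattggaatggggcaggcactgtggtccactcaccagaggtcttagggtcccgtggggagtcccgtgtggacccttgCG
near Cxcl13, chr5:96356445-96356587, plus strand: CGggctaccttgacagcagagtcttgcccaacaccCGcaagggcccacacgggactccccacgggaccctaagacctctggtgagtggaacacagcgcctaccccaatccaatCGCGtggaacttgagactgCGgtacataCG
near Pou3f2, chr4:23134707-23134804, plus strand: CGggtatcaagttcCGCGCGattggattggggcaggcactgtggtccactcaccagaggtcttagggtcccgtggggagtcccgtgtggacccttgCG
near Mup18, chr4:61346322-61346621, plus strand: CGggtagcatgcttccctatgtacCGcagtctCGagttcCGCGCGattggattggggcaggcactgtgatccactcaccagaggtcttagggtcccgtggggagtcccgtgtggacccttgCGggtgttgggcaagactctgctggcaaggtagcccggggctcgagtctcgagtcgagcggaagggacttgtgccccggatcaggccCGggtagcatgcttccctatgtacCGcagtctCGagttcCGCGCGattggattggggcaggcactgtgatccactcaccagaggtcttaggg
near F11r, chr1:173413184-173413328, plus strand: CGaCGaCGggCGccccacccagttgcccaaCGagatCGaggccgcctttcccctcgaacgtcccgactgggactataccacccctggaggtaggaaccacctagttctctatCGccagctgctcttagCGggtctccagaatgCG
near Impad1, chr4:5138301-5138600, plus strand: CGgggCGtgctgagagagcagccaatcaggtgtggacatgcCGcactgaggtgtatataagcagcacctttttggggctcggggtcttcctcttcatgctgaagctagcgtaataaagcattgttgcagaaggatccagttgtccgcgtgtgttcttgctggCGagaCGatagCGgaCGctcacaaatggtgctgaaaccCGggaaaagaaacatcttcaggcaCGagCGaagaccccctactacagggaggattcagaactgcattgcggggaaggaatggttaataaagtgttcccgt
near Akr1d1, chr6:37637096-37637241, plus strand: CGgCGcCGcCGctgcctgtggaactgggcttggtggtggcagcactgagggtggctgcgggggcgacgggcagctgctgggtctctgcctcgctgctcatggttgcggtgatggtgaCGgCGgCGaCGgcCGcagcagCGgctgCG
near Vmn2r18, chr5:152319730-152319861, plus strand: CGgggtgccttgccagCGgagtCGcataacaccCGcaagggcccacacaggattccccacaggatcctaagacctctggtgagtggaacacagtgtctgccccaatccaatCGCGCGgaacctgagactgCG
near Gm10797, chr10:67160903-67161027, plus strand: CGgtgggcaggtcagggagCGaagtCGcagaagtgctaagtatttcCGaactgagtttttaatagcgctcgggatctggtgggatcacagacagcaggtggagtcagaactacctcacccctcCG

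Distal sites were mostly methylated in serum and lost a large part of that level in 2i + Vitamin C, in WT as in KO cells. The mean methylation level over the sites was 67.3% in WT serum, 71.4% in KO serum, 37.5% in WT 2i + Vitamin C and 35.2% in KO 2i + Vitamin C, with medians of 85.3%, 88.7%, 35.1% and 31.9%. Both serum libraries were far above both 2i + Vitamin C libraries, and KO cells were the higher of the pair in serum and the lower in 2i + Vitamin C. The share of sites at 80% methylation or more was 58.6% in WT serum and 65.0% in KO serum, and it was 11.1% in WT 2i + Vitamin C and 8.43% in KO 2i + Vitamin C. Sites at 20% or less made up 19.4%, 16.9%, 37.7% and 39.5% in the same order. The median coverage of a distal site was 42 reads in WT serum, 48 in KO serum, 69 in WT 2i + Vitamin C and 34 in KO 2i + Vitamin C, from libraries that summed to 42672691 to 90649194 reads.

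**Figure D1:**
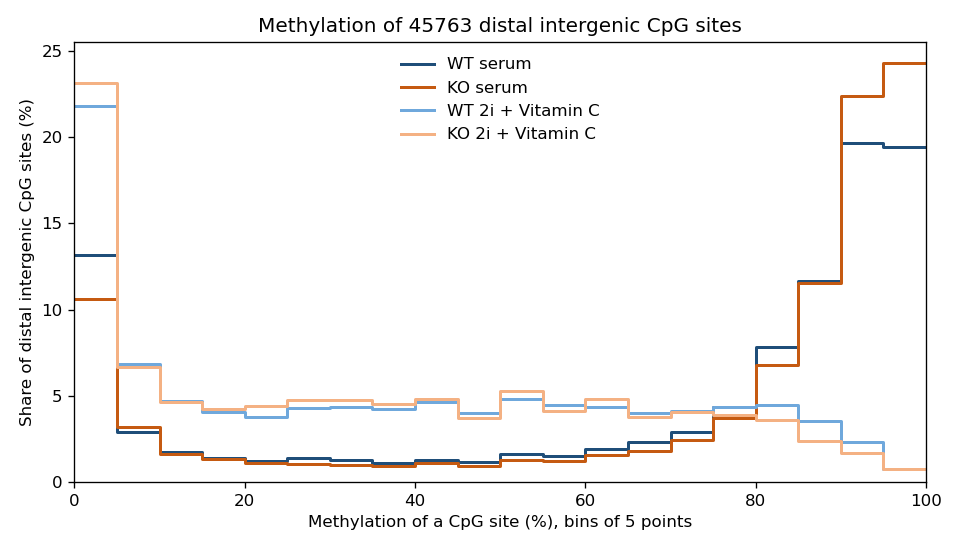
The share of distal intergenic CpG sites (y axis, %) is plotted against their methylation level (x axis, %, bins of 5 points) as 1 stepped line per library. The serum lines peak near full methylation, with 58.6% (WT) and 65.0% (KO) of sites at 80% or more, while the 2i + Vitamin C lines are spread across the middle and peak near 0.

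Compared with the other classes, distal and intronic sites had like levels in serum, and distal sites were the more methylated in 2i + Vitamin C. The 44552 intronic sites, which lay away from promoters, had means of 65.4% in WT serum, 71.2% in KO serum, 29.7% in WT 2i + Vitamin C and 26.4% in KO 2i + Vitamin C. Distal sites thus kept 55.8% of their mean serum level in WT cells and 49.3% in KO cells, and intronic sites kept 45.3% and 37.1%. Among sites at 80% or more in WT serum, the mean in WT 2i + Vitamin C was 56.3% at 26835 distal sites, 46.5% at 23095 intronic sites and 44.4% at 11375 exonic sites. Promoter sites, many of which lie in CpG islands, had a mean of 5.28% in WT serum. The classes also differed in repeated sequence: 62.5% of distal and 87.0% of intronic sites lay in sequence found once in mm9 (counted as described with the copies of sites). At such sites alone the means in WT 2i + Vitamin C were 29.5% (distal) and 27.9% (intronic), and in KO 2i + Vitamin C 26.5% and 24.4%. The distal sites started lower there, with 60.4% against 64.2% in WT serum and 65.1% against 70.2% in KO serum. They kept 48.8% of the serum mean in WT cells and 40.8% in KO cells, and the intronic sites kept 43.4% and 34.8%. The gap in level was thus small at such sites, while part of the gap in the share kept remained. CpG sites are not replicates of a condition, so the classes are compared without a test. Just inside the 10 kb limit, 1494 sites at 10 to 11 kb from a gene had means of 61.6%, 65.5%, 32.6% and 30.3% in WT serum, KO serum, WT 2i + Vitamin C and KO 2i + Vitamin C, and just outside it 1909 sites at 9 to 10 kb had 57.7%, 63.1%, 29.4% and 26.8%.

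**Figure D2:**
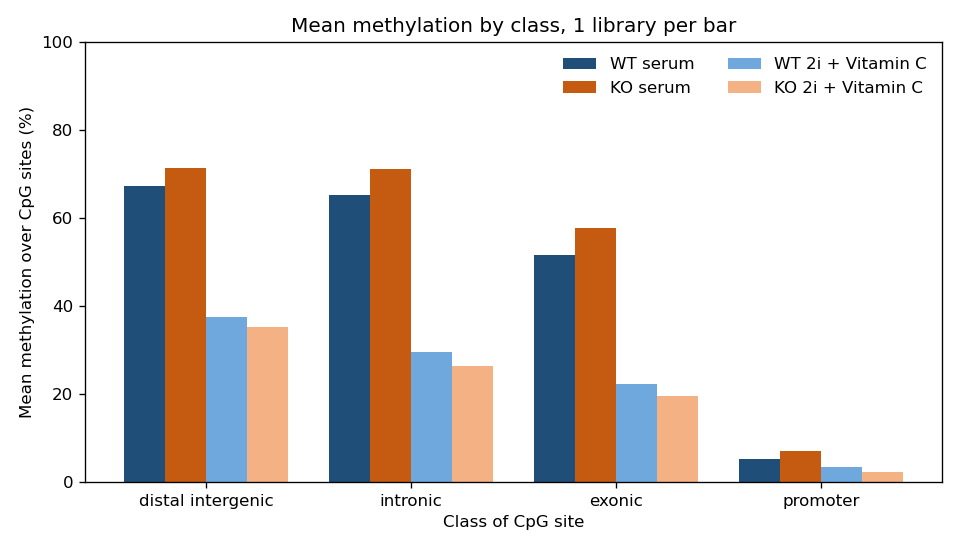
Bars give the mean methylation level (y axis, %) of distal intergenic, intronic, exonic and promoter CpG sites (x axis), with 1 bar for each of the 4 libraries. In WT 2i + Vitamin C the distal bar stands at 37.5% and the intronic bar at 29.7%, and in WT serum they stand at 67.3% and 65.4%.

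Within the distal sites, the level varied with distance, with CpG density and with the number of copies of the sequence, of which the membership used only the 10 kb limit. Methylation rose with distance from genes: the mean in WT serum was 59.4% at 10 to 20 kb, 65.6% at 20 to 50 kb, 68.6% at 50 to 100 kb and 77.3% beyond 100 kb, and in WT 2i + Vitamin C it was 31.5%, 35.5%, 38.3% and 46.4%. It fell with CpG density, counted in the 500 bp around each site. The mean in WT serum was 82.4% with fewer than 10 CpG, 76.1% with 10 to 19, 61.3% with 20 to 29 and 17.8% with 30 or more. The order of the density groups was the same in all 4 libraries. Sites with 30 or more CpG in sequence found once in mm9 were nearly free of methylation: 4350 such sites in 334 loci had means of 3.47% in WT serum, 5.51% in KO serum, 2.56% in WT 2i + Vitamin C and 1.55% in KO 2i + Vitamin C.

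Repeated sequence kept more methylation in 2i + Vitamin C than unique sequence. The number of copies of a site was taken as the median number of times that the 24-base words around it, within 101 bp, occur in mm9, a measure that was added after the data were seen. The 28584 sites with 1 copy kept 48.8% of their serum mean in WT cells and 40.8% in KO cells. Sites with over 1 and under 5 copies kept 69.1% and 62.7%, those with 5 to under 50 copies kept 68.6% and 63.9%, and those with 50 or more kept 60.1% and 57.3%. Sites in every class of repeated sequence thus kept more than unique sites in both genotypes. The difference was also present within 1 class of CpG density: at 10 to 19 CpG the share kept in WT cells was 46.6% with 1 copy against 70.5%, 70.7% and 68.5% in the classes of repeated sequence. The same held from a common start: of the sites at 80% or more in WT serum, those with 1 copy kept 54.2% and the others 72.0%, 71.5% and 66.5%. Intronic sites showed the same difference between unique and repeated sequence, with 43.4% kept at 1 copy and 52.3% to 61.8% in the other classes. How reads from near-identical copies were placed is not given in the sources used here, and its part in these values was not tested.

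**Figure D3:**
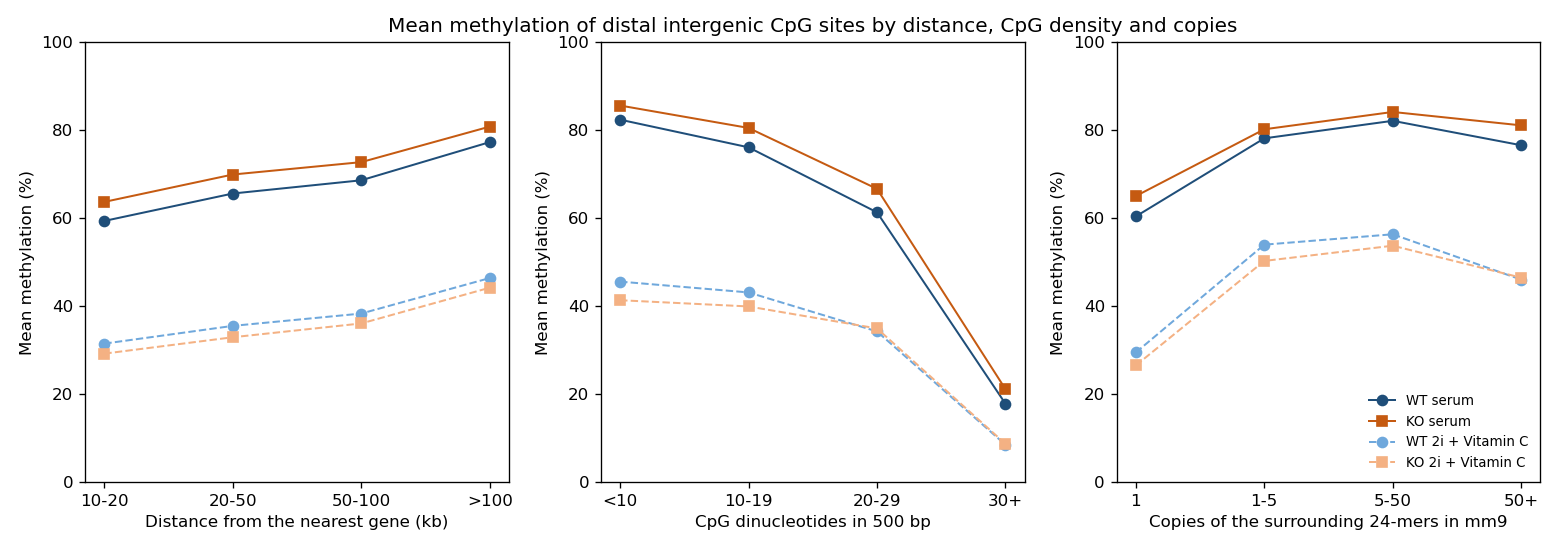
Mean methylation (y axis, %) of distal intergenic CpG sites is plotted in the 4 libraries against distance from the nearest gene (left), number of CpG in 500 bp (middle) and copies of the surrounding 24-base words in mm9 (right). Levels rise with distance and fall with CpG density in every library, and the 28584 sites with 1 copy have the lowest means of the copy classes, 60.4% in WT serum and 29.5% in WT 2i + Vitamin C.

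The comparison of media asks how far distal sites were demethylated in 2i + Vitamin C. The mean over sites fell by 29.8 percentage points in WT cells (95% counting interval ± 0.0733) and by 36.2 points in KO cells (± 0.0849). Single sites were called where Fisher's exact test on their reads gave an adjusted p under 0.05 and the level differed by at least 20 points. These tests compare 2 libraries, not the conditions. Lower methylation in 2i + Vitamin C was called at 25293 distal sites (55.3%) in WT cells, against 26% of all sites tested, and at 28104 (61.4%) in KO cells, against 29.4%. The shares over all sites include promoter sites, of which 4.52% (WT) and 5.94% (KO) were called lower. Distal sites were called lower less often than intronic sites (68.0% and 73.8%) and exonic sites (56.8% and 63.7%). Higher methylation was called at 34 distal sites in WT cells (0.0743%, against 0.149% of all sites) and at 34 in KO cells (0.0743%, against 0.029%). Of the regions, 1701 were lower in WT cells (60.04%, against 30.9% of all regions) and 1945 in KO cells (68.7%, against 35.5%), while higher methylation was called at 0 distal regions in WT cells (0% of all regions) and at 2 in KO cells (0.0706% of distal regions, against 0.0181% of all regions).

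Sites that began at 80% or more mostly came to rest at intermediate levels. Of the 26835 such sites in WT serum, 18.6% were still at 80% or more in WT 2i + Vitamin C, 74.6% lay between 20% and 80%, and 6.79% were at 20% or less. In KO cells 29762 sites began at 80% or more, and 12.7%, 73.1% and 14.1% were in these 3 states. Across all 4 libraries, 2684 sites in 1385 loci stayed at 80% or more (5.87% of distal sites), and 32.0% of these had 1 copy, against 62.5% of all distal sites. The 7542 sites at 20% or less in all 4 libraries (16.5%) had a median of 35 CpG in 500 bp, against 14 for all distal sites, and 88.4% had 1 copy.

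Among regions with at least 100 reads in each library, the 4 best kept in WT 2i + Vitamin C differed from WT serum by -1.82 to -4.11 points. A region 12.0 kb from Olfr136, an olfactory receptor gene, had 98.5% methylation in WT serum, 100% in KO serum, 94.4% in WT 2i + Vitamin C and 91.2% in KO 2i + Vitamin C. The region 44.4 kb from Vmn2r18, a vomeronasal receptor gene, had 94.97%, 96.5%, 93.1% and 90.9%. These levels were high in all 4 libraries. A region 20.5 kb from Nlrp4a had 96.1%, 98.2%, 94.2% and 81.1%, and one 42.8 kb from Dph3b-ps had 96.2%, 94.9%, 93.7% and 77.7%. KO 2i + Vitamin C was the lowest library in all 4 of these regions, by the widest margin in the latter pair. KO minus WT in that medium was -3.23, -2.28, -13.1 and -16.0 points in the order given, short of the 20 points of a call. At the other end, the region between Gm10797 and Zfp365 had 82.9% and 93.3% in WT and KO serum but 4.87% and 4.93% in WT and KO 2i + Vitamin C. A region between Tat, a liver tyrosine aminotransferase gene, and Chst4 had 88.6%, 98.5%, 5.67% and 12.0%. One 442 kb from Nova1 had 84.4%, 93.7%, 7.49% and 7.21%, and one 113 kb from Lyzl1 had 80.4%, 79.3%, 7.12% and 5.54%. These 8 regions were chosen by their levels in WT cells, so the WT values are a description. In the 4 best kept, the choice by a high level in WT 2i + Vitamin C also favours a lower KO value in that medium.

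**Figure D4:**
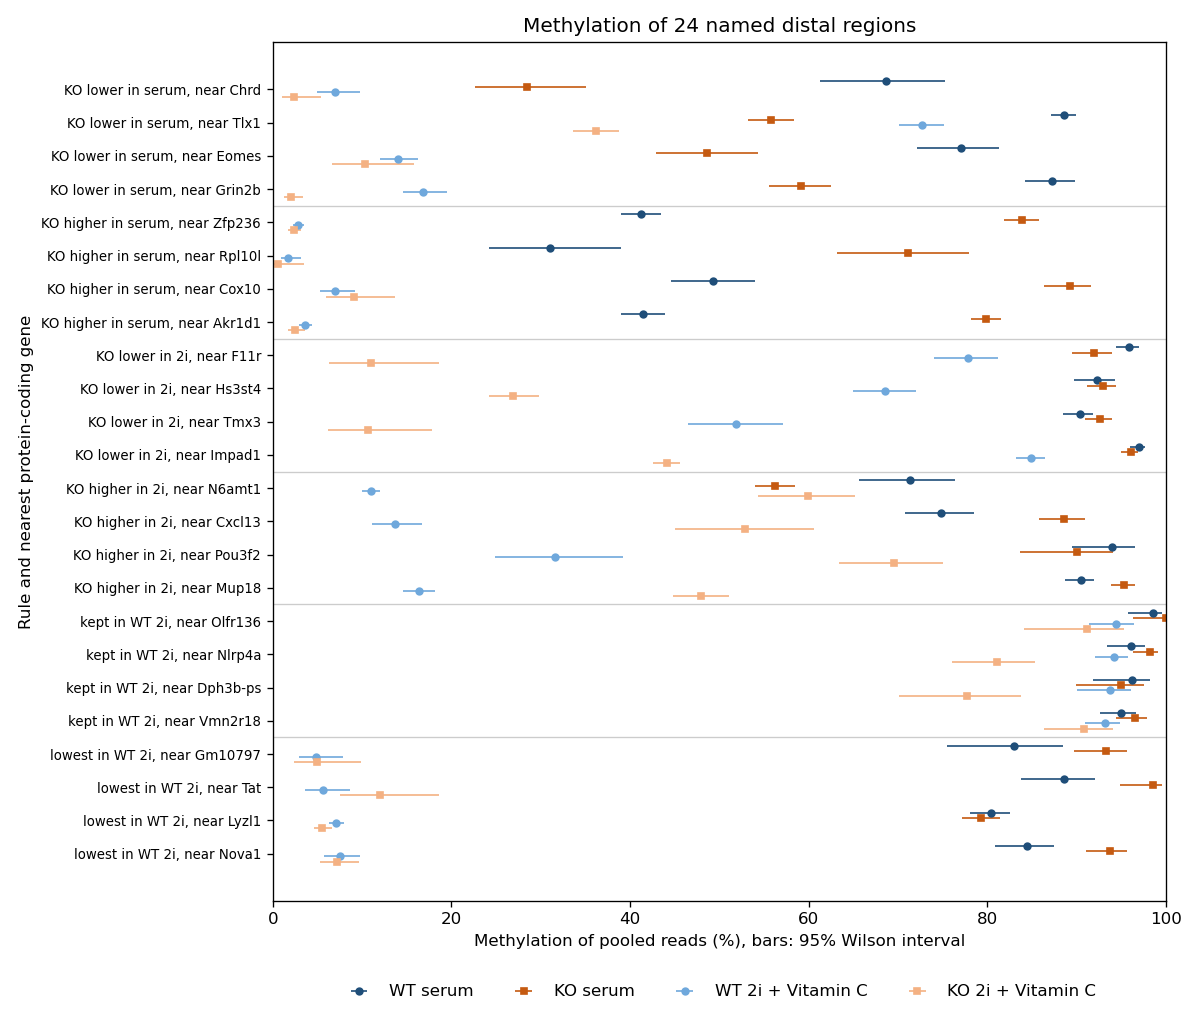
Methylation of the pooled reads (x axis, %) is shown for 24 named regions (y axis, by the rule that chose each and its nearest protein-coding gene), with points for the 4 libraries and bars for 95% Wilson intervals. In the regions higher in KO cells in 2i + Vitamin C the KO points lie between 47.9% and 69.5% and the WT points between 10.9% and 31.6%.

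In serum, KO cells had more methylation than WT cells at distal sites, and few sites had less. The mean over sites was 4.10 points higher in KO serum (95% counting interval ± 0.0731), and it was higher on 19 of 19 autosomes, by 3.41 to 5.10 points. Pooling the reads of all sites instead gave 0.413 points. The KO serum library had relatively more reads at CpG-dense sites, with a median of 87 reads with 30 or more CpG and 36 with fewer than 10, while WT serum had 60 and 35, and with the same weights for both libraries (the summed coverage of each site) the difference was 3.71 points. Higher methylation in KO serum was called at 1082 sites in 636 loci, 2.36% of distal sites against 1.79% of all sites tested and 3.49% of intronic sites. Lower methylation was called at 62 sites in 34 loci, 0.135% against 0.115% of all sites. Of the regions, 147 were higher (5.19%, against 3.59% of all regions) and 7 were lower (0.247%, against 0.194%).

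The sites called higher in KO serum had on average a middling level in WT serum and a low level in both 2i + Vitamin C libraries. Over these 1082 sites, the mean was 36.6% in WT serum, 69.5% in KO serum, 12.3% in WT 2i + Vitamin C and 11.4% in KO 2i + Vitamin C. The serum values chose these sites, whereas the 2i + Vitamin C values did not. Grouped instead by their level in WT 2i + Vitamin C, which neither serum library sets, all distal sites showed a KO excess in serum of 7.51 points at 0 to 20%, 4.91 at 20 to 40%, 2.05 at 40 to 60%, 0.459 at 60 to 80% and 0.239 at 80 to 100%. Sites near full methylation in serum could rise only a little, and this limit moves with the groups. The mean level in WT serum was 30.6% in the first group and 94.9% in the last. At the region 118 kb from Akr1d1, a steroid reductase gene, methylation was 41.4% in WT serum and 79.9% in KO serum. In WT and KO 2i + Vitamin C it was 3.58% and 2.51%. The adjusted p was 2.79e-127 in serum and 0.221 in 2i + Vitamin C (Fisher's exact test, Benjamini-Hochberg adjusted over all regions). A region 31.7 kb from Cox10, a gene of heme synthesis, had 49.3%, 89.2%, 7.0% and 9.13% in the same order of libraries. One 13.3 kb from Rpl10l had 31.1%, 71.1%, 1.74% and 0.629%, and one 66.1 kb from Zfp236 had 41.3%, 83.9%, 2.79% and 2.35%. All 4 regions with the largest gain were thus low in both 2i + Vitamin C libraries.

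The regions with the largest loss in KO serum were unlike each other in 2i + Vitamin C. A region 62.0 kb from Chrd, on chromosome 16, had 68.7% in WT serum and 28.5% in KO serum. It had 6.96% in WT 2i + Vitamin C and 2.35% in KO 2i + Vitamin C. A region 79.8 kb from Eomes, a T-box gene of early differentiation, had 77.0%, 48.6%, 13.99% and 10.3%, and one 49.5 kb from Grin2b, a glutamate receptor gene, had 87.3%, 59.1%, 16.9% and 2.10%. In these 3 regions both 2i + Vitamin C libraries were low. The region between Tlx1 and Lbx1, homeobox genes, differed: it had 88.6%, 55.8%, 72.7% and 36.2%, so KO minus WT was -32.8 points in serum and -36.5 points in 2i + Vitamin C (adjusted p = 4.22e-102 and 6.30e-74, Fisher's exact test, adjusted over all regions). It was the only distal region of the 2833 called lower in KO cells in both media, and 3 regions were called higher in both.

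In 2i + Vitamin C the mean ran the other way, with KO minus WT at -2.35 points (95% counting interval ± 0.0851), and it was lower on 19 of 19 autosomes, with values between -3.35 and -1.28 points. Pooling the reads gave a difference of -0.340 points, and counting each region once gave -1.49. With the same weights for both libraries it was -2.30. Lower methylation in KO cells was called at 437 sites in 301 loci, 0.955% of distal sites against 0.405% of all sites tested and 0.572% of intronic sites. Higher methylation was called at 159 sites in 102 loci, 0.347% against 0.0917% of all sites and 0.126% of intronic sites. Both lists were poor in unique sequence: 38.4% of the sites called lower and 10.7% of those called higher had 1 copy, against 62.5% of all distal sites. Among the 28584 distal sites with 1 copy, 0.588% were called lower and 0.0595% higher. Of the regions, 58 were lower (2.05%, against 0.754% of all regions) and 38 were higher (1.34%, against 0.343%). Over the sites called lower, the means were 84.9% in WT serum, 87.6% in KO serum, 68.5% in WT 2i + Vitamin C and 29.8% in KO 2i + Vitamin C. Of the 62 distal sites called lower in KO serum, 15 were also called lower in 2i + Vitamin C, which is 24.2% of the serum list and 3.43% of the list in 2i + Vitamin C. In the opposite direction, 30 of the sites called higher in KO serum were called lower in 2i + Vitamin C, 2.77% of the serum list and 6.86% of the other. Neighbouring sites count separately in these overlaps: the 62 sites lay in 34 loci, with up to 8 in a single locus. The same overlaps were not taken over all sites tested, so these shares have no background to be read against.

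The regions with the largest loss in KO 2i + Vitamin C were highly methylated in both serum libraries. The region 18.5 kb from F11r, a junctional adhesion molecule gene, had 95.9% in WT serum, 92.0% in KO serum, 77.8% in WT 2i + Vitamin C and 11% in KO 2i + Vitamin C, with 100 reads in the last library (adjusted p = 4.49e-35 for the comparison in 2i + Vitamin C, Fisher's exact test, adjusted over all regions). The sequence near F11r had 71 copies in mm9, taken as matches of at least 80% identity over at least 80% of its length. No other distal sites lay in those copies. The region whose nearest protein-coding gene is Impad1, at 418 kb, had 96.9%, 96.0%, 84.8% and 44.1%, the last from 4158 reads. Its sequence had 51 copies in mm9 by the same limits. The 8 other loci among those copies that held distal sites, 37 sites in all, had means of 94.2%, 93.4%, 70.9% and 59.8%, and 6 of the 8 were lower in KO than in WT 2i + Vitamin C, where 64.5% of all distal loci were lower. A region 111 kb from Hs3st4 had 92.3%, 93.0%, 68.6% and 26.9%, and one 239 kb from Tmx3 on chromosome 18 had 90.3%, 92.6%, 51.8% and 10.7%. The latter pair matched each other at 81.8% identity over 148 bp. Among other copies of the sequence near Hs3st4, with 2714 sites in 623 loci, KO minus WT in 2i + Vitamin C was -2.37 points, close to the -2.35 of all distal sites, and 422 of the 623 loci (67.7%) were lower, against 64.5% of all distal loci. Among other copies of the sequence near Tmx3, with 1125 sites in 195 loci, it was 0.897 points, with 98 loci lower and 97 higher. The loss at the regions near Hs3st4 and Tmx3 was thus not seen in the mean of their other copies.

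The regions with the largest gain in KO 2i + Vitamin C were copies of one sequence. The region 51.5 kb from N6amt1 had 71.3% methylation in WT serum and 56.2% in KO serum, from 272 and 1929 reads. In WT and KO 2i + Vitamin C it had 10.9% and 59.9%, from 3745 and 309 reads. The region 29.4 kb from Cxcl13, a chemokine gene, had 74.8%, 88.6%, 13.7% and 52.9%. The region whose nearest protein-coding gene is Pou3f2, at 719 kb, had 93.9%, 90.0%, 31.6% and 69.5%, and that 11.2 kb from Mup18, a major urinary protein gene, had 90.5%, 95.3%, 16.3% and 47.9%. KO was above WT in 2i + Vitamin C by 31.6 to 48.9 points in these regions, and in serum it was above WT in 2 of the 4. In every alignment between these 4 sequences, the identity lay between 92.5% and 97.8%. Each had 5428 to 10442 matches in mm9 at the limits used for copies. Matches overlapped, and those of all 4 sequences together merged into 5413 stretches. The sequence near Vmn2r18, which kept its methylation in both genotypes, belongs to the same group: it matched that near Cxcl13 at 87.3% identity over 134 bp. Parts of the regions near Dph3b-ps and between Tlx1 and Lbx1 also matched that near Cxcl13, at 86.9% identity over 84 bp and 86.7% over 75 bp, and KO minus WT in 2i + Vitamin C was -16.0 and -36.5 points there. The regions near Vmn2r18 and Dph3b-ps were chosen for a high level in WT 2i + Vitamin C, which left little room for a gain. That between Tlx1 and Lbx1 was chosen for its loss in KO serum. These regions therefore cannot show how often likeness to these sequences went with a gain. None of the 24 named regions matched a capture probe or a target oligonucleotide of a KRAB-ZFP.

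To see whether the gain was shared by other copies, the distal sites inside copies of these 4 sequences were pooled, leaving out all named regions. These 4185 sites in 892 loci made up 9.14% of distal sites. Their means were 79.2% in WT serum, 85.3% in KO serum, 47.1% in WT 2i + Vitamin C and 50.5% in KO 2i + Vitamin C, so KO minus WT was 3.42 points in 2i + Vitamin C, and it was -2.92 points at the 41401 distal sites outside the copies. Of the 892 loci, 516 (57.8%) were higher in KO 2i + Vitamin C, against 34.9% of all 13372 distal loci, and their mean was higher in KO cells on 18 of 19 autosomes. The excess was in the CpG-dense copies: it was 7.10 points at 2326 sites with 20 or more CpG in 500 bp, against -1.19 points at 1859 sites with fewer. The KO excess in serum was 9.11 and 2.27 points at the same sites. Among 1285 intronic sites inside copies, which the search did not start from, KO cells were 3.85 points higher in 2i + Vitamin C. Of the sites in copies, 68 were called higher in KO 2i + Vitamin C (1.62%, against 0.171% of distal sites outside the copies) and 46 were called lower (1.10%, against 0.870%). With the named regions, which were picked for the gain, included, the copies held 88 of the 159 distal sites called higher (55.3%). The search began from regions picked for their gain in KO 2i + Vitamin C, so these values are a description.

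Other repeated sequence of like CpG density had a smaller difference. Of all distal sites with 20 or more CpG and 50 or more copies, 4619 in 1069 loci, the means were 69.1% in WT serum, 75.5% in KO serum, 35.9% in WT 2i + Vitamin C and 39.1% in KO 2i + Vitamin C. Within this set and outside named regions, KO minus WT in 2i + Vitamin C was 7.17 points at 1942 sites in copies of the 4 sequences and 0.375 points at the 2635 other sites. It was -0.936 points at sites with 20 or more CpG and under 50 copies, -3.14 at those with fewer CpG and 50 or more copies, and -3.63 at those with fewer CpG and fewer copies. In serum it was between 2.17 and 6.38 points in all of these sets of density and copies.

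**Figure D5:**
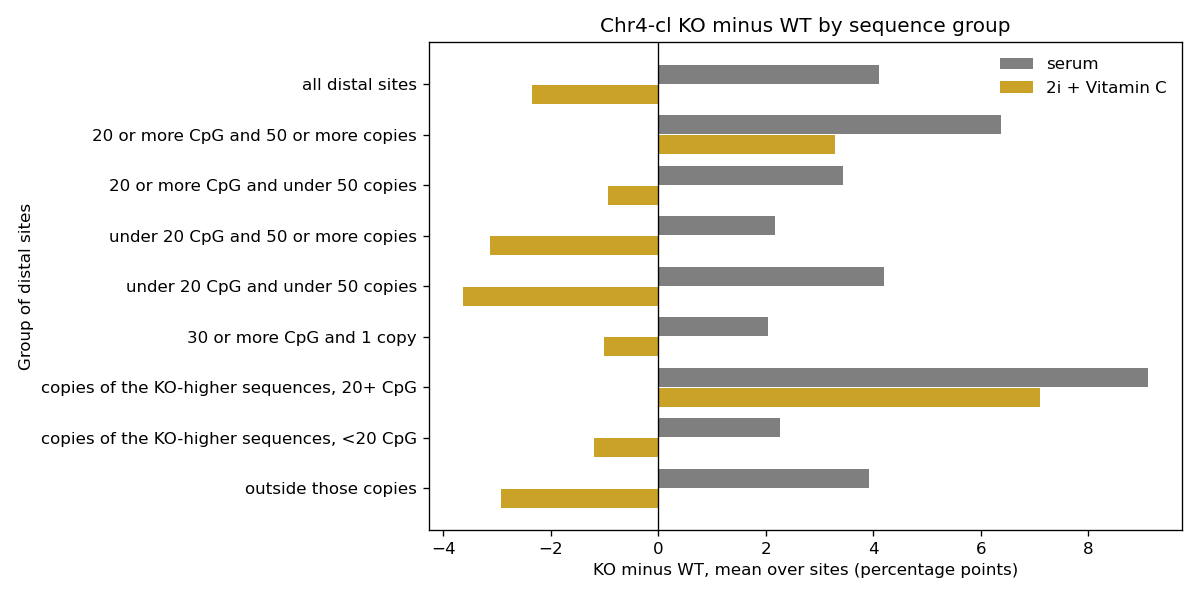
Bars give KO minus WT (x axis, percentage points, mean over sites) in serum and in 2i + Vitamin C for groups of distal intergenic CpG sites (y axis); the group with 30 or more CpG and 1 copy is a subset of that with 20 or more CpG and under 50 copies. Serum bars are above 0 in every group, and bars for 2i + Vitamin C are above 0 only for all sites with 20 or more CpG and 50 or more copies (3.29 points) and for the CpG-dense copies of the KO-higher sequences (7.10 points).

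The study's designed KRAB-ZFP target oligonucleotides were matched to mm9, and sites within 500 bp of a match were read. Of the 20 oligonucleotides, 8 had distal sites near a match. For Gm21082, a Chr4-cl gene, 194 sites near its IAPLTR1_Mm target had means of 92.7%, 93.8%, 71.0% and 65.3% in WT serum, KO serum, WT 2i + Vitamin C and KO 2i + Vitamin C. For Gm13157, also of Chr4-cl, 39 sites near its IAPLTR4 target had 90.7%, 92.3%, 72.5% and 59.98%. KO minus WT was thus -5.66 points (95% counting interval ± 1.51) and -12.6 points (± 2.92) in 2i + Vitamin C, against -3.82 points over all distal sites at 80% or more in WT serum and -4.68, -3.67 and -1.18 points over those of them with over 1 and under 5, 5 to under 50, and 50 or more copies. The first of these copy classes lies within the interval for Gm21082, and none of these values lies within that for Gm13157. In serum KO minus WT was 1.11 and 1.65 points. Near the ORR1A2 target of Zfp617, of a cluster on chromosome 8 that these cells retain, 111 sites had 80.4%, 86.2%, 41.1% and 37.9%, a difference of -3.22 points (± 1.91) in 2i + Vitamin C. Near the proline primer binding site target of Zfp809, 64 sites had 74.0%, 74.4%, 56.3% and 50.2%, a difference of -6.11 points (± 2.28). Zfp809 was not matched to Chr4-cl or another cluster, and this difference was no smaller than that for Gm21082. The other 4 had 1 to 8 sites each, too few for a mean to be compared.

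The share of sites called rose with coverage. In serum, of the sites that differed by at least 20 points between KO and WT, 3.81% were called where the smaller coverage was under 20 reads, 25.7% at 20 to 49 reads and 79.0% at 50 or more. In 2i + Vitamin C these shares were 3.42%, 10.9% and 55%. Between media, where differences were larger, 65.3% (WT) and 73.5% (KO) of the sites past 20 points were called under 20 reads. Observed differences at thinly covered sites include sampling noise, so these shares do not give the share of true differences that was found.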

How the data were processed

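RRBS-seq libraries of 4 samples, 1 per group, were analysed. Per the study's methods and the submitters' processing notes, reads were trimmed with Trim Galore (RRBS mode, with further bases cut from the read ends), aligned to mm9 with Bismark, and the counts of both strands of each CpG were joined; versions are not given in the sources used here. For each CpG the authors deposited the count of all reads and of methylated reads, and a methylation fraction, which was not used since it follows from the counts. The count tables of WT serum and KO 2i + Vitamin C each held a second table of 1161870 and 1575598 rows, of which 59 and 54 reached 10 reads, and 332 and 830 rows at repeated positions were left out.

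The methylation level was methylated over all reads. Genes were those of GENCODE vM1 on mm9, and chromosome names and lengths were checked against the genome used. The 4 comparisons were made on counts with a two-sided Fisher's exact test per site or region, with Benjamini-Hochberg adjustment over all 400195 sites or 22157 regions, and a call needed an adjusted p under 0.05 and 20 points. Such a test compares 2 libraries. The test was checked on simulated data. Named regions were distal regions of at least 5 sites and 100 reads in each library: the 4 called with the largest loss and the 4 with the largest gain in KO cells in each medium, and, of those at 80% or more in WT serum, the 4 highest and 4 lowest in WT 2i + Vitamin C. The members and lists were chosen with earlier results of these data known. Copies were counted as 24-base words, and sequences were matched with blastn 2.17.0 (target oligonucleotides at 85% identity over 80% of their length). Other alternatives were the coverage minimum, the distance limit, thinning, pooled reads, regions, and the size of change. The scripts used Python 3.11.15 with scipy 1.17.1 and pandas 2.3.3, matplotlib 3.10.9 for plots, and pysam 0.24.0, numba 0.67.0 and numpy 2.4.6. Sex chromosomes and distal sites near capture probes were left out of the distal set. They were not left out of all sites and regions tested, which the adjustment and the shares of all sites used.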

Additional observations from a re-analysis of the deposited data

Results flagged for a closer look

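The difference between KO and WT cells had opposite signs in the 2 media: KO minus WT was 4.10 points in serum and -2.35 points in 2i + Vitamin C over the 45763 distal sites, so the second was lower than the first by a difference of -6.45 points. It stands out because the 1 library of each group moved in opposite directions, and with 1 library per group the difference was not tested. All 19 autosomes showed both signs. So did the other classes of sites: KO minus WT was 5.84 and -3.21 points at intronic sites and 6.28 and -2.62 at exonic sites. At promoter sites it was 1.70 and -1.06 points, and over all sites tested 3.12 and -1.74. The change of sign was thus not particular to distal sites. The signs were the other way round when all reads of a library were pooled at any coverage. Such pooled methylation was 24.5% in WT serum, 22.0% in KO serum, 11.8% in WT 2i + Vitamin C and 14.2% in KO 2i + Vitamin C. These pooled values count each site by its reads, and the sites covered differ between libraries. The KO 2i + Vitamin C library was also the shallowest, with a median of 34 reads at a distal site against 69 in WT 2i + Vitamin C. With each site thinned to its smallest coverage, KO minus WT was 4.12 points in serum and -2.31 points in 2i + Vitamin C.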

How the results depend on the processing

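No value turned its direction under any alternative run. Of the mean differences under alternatives 17 of 44 stayed within counting error, and of the percentages of sites and regions called 36 of 40 and 35 of 40 stayed within 1.5 times. The mean differences below are in the order KO minus WT in serum, KO minus WT in 2i + Vitamin C, and 2i + Vitamin C minus serum in WT and in KO. With at least 5 reads they were 4.20, -2.48, -30.7 and -37.4, beyond 50 kb 3.80, -2.22, -30.6 and -36.7, and with each region counted once 4.34, -1.49, -28.1 and -33.9. With pooled reads they were 0.413, -0.340, -28.9 and -29.7. Chosen after seeing the data, sites of 1 copy gave 4.63, -2.95, -30.9 and -38.5, and weights by summed coverage gave 3.71 in serum and -26.6 and -32.0 between media. Between media, at least 20 reads gave -28.4 and -34.9, and 10 kb from protein-coding genes alone -28.2 and -34.7. The cause of these shifts was not tested.

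The share of distal sites called in either direction between KO and WT, 2.50% in serum and 1.30% in 2i + Vitamin C, was 1.15% and 0.559% when each site was thinned to its smallest coverage, which leaves fewer reads. In serum it was 1.37% with a change of at least 30 points. In 2i + Vitamin C it was 0.647% at sites of 1 copy. The share of regions, 5.44% and 3.39%, was 17.5% and 17.4% with a change of at least 10 points and 1.02% and 0.741% with 30 points, and in 2i + Vitamin C 1.39% at regions of 1 copy. No paired analysis was possible because each group had 1 library, and for the same reason no replicate could be left out. The planned comparison of sites outside soft-masked sequence was not run, since the genome used here marks none.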
